A study of Homo sapiens with 20 samples.

Results

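The genes described are 10 that encode cleavage and polyadenylation factors, the proteins that cut nuclear pre-mRNA at its 3′ end and start the poly(A) tail: CPSF1, CPSF2, CPSF3, CPSF4, CPSF6, CPSF7, NUDT21, CSTF2, CSTF3 and PCF11. They were chosen by name, not by any measured value, and matched to the peaks through the Ensembl gene identifier that each deposited peak carries. All 10 were found among the 19362 genes with a peak in the 16 libraries. What was measured is binding of splicing factors to the transcripts of these genes, not the amount or activity of the factors they encode.

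The series used individual-nucleotide cross-linking and immunoprecipitation (iCLIP), in which ultraviolet light joins a protein to the RNA it touches and the RNA fragments are sequenced. Libraries were made from nuclear extracts of TREX FLP-In 293T cells, a human embryonic kidney line with a tetracycline-inducible insertion site. Control cells carried no overexpressed protein, and the other cells were inducible lines for T7-tagged hnRNP A1. Antibodies against hnRNPA1 gave 2 control and 2 overexpression libraries, and those against U2AF2 and SRSF1 gave 3 and 3 each. Both kinds of cell were kept in tetracycline for 24 h. Before use, control cells were selected for 3 days with blasticidin and zeocin and the inducible lines with hygromycin, so the selecting drug differed between the groups. Neither the number of clones nor whether replicates came from separate cultures is given by the labels, so p-values measure only the spread between these libraries, which may be technical. By the series' design text, the comparison asks how hnRNP A1 levels influence where U2AF2 and SRSF1 bind.

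U2AF2 is the large subunit of the U2 auxiliary factor, which binds the pyrimidine-rich tract in front of a 3′ splice site. hnRNPA1 is an abundant nuclear RNA-binding protein that often represses splice sites, and SRSF1 is an SR protein that often promotes exon inclusion. In the last exon of a gene, splicing of the final intron and cleavage at the poly(A) site help each other, and U2AF2 is known to contact both poly(A) polymerase and the CPSF7 subunit of cleavage factor I. The CPSF complex reads the AAUAAA hexamer and cuts, cleavage factor I (CPSF6, CPSF7 and NUDT21) binds UGUA elements and guides the choice of poly(A) site, CstF binds the GU-rich element downstream, and PCF11 links cleavage to the end of transcription.

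Values are reads in deposited peaks. Totals per library ran from 549365 to 2973275 for hnRNPA1, from 702563 to 3657197 for U2AF2 and from 125082 to 329448 for SRSF1, and the totals moved with the condition: the 2 hnRNPA1 overexpression libraries held fewer reads than the 2 control libraries, and the 3 U2AF2 overexpression libraries held more than the 3 control libraries. The library of U2AF2 with overexpression, replicate 3, listed peaks from 3 reads upward, the other 15 from 6. A gene without a peak may therefore hold reads that were not listed, and no bound for them can be set. Of 6 genes fixed as markers of this kidney line, KRT8 had a peak in 1 library and PAX2 in 3, and KRT18, NEFL, NEFM and LHX1 had none. Of 10 genes of blood, fibroblast and endothelial cells, LYZ had peaks in 13 libraries with 1803 reads and VWF in 1 with 8 reads, and the other 8 had none. Such peaks report binding and not expression.

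Across the 16 libraries the members differed widely in level, given here as reads per 1000000 reads in peaks (RPM) and without correction for gene length. CPSF6 had the highest median, 547, followed by CSTF3 with 144, CPSF2 with 76.0, PCF11 with 59.5, CPSF7 with 44.97, CPSF1 with 34.1, CPSF4 with 17.1, NUDT21 with 11.8, CPSF3 with 10.4 and CSTF2 with 3.15. Peaks of CPSF2, CPSF6, CSTF3 and PCF11 were listed in all 16 libraries, and those of CSTF2 in 8. CPSF6 alone held 564 of the deposited peaks and CSTF3 215, against 18 for CSTF2.

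**Figure D1:**
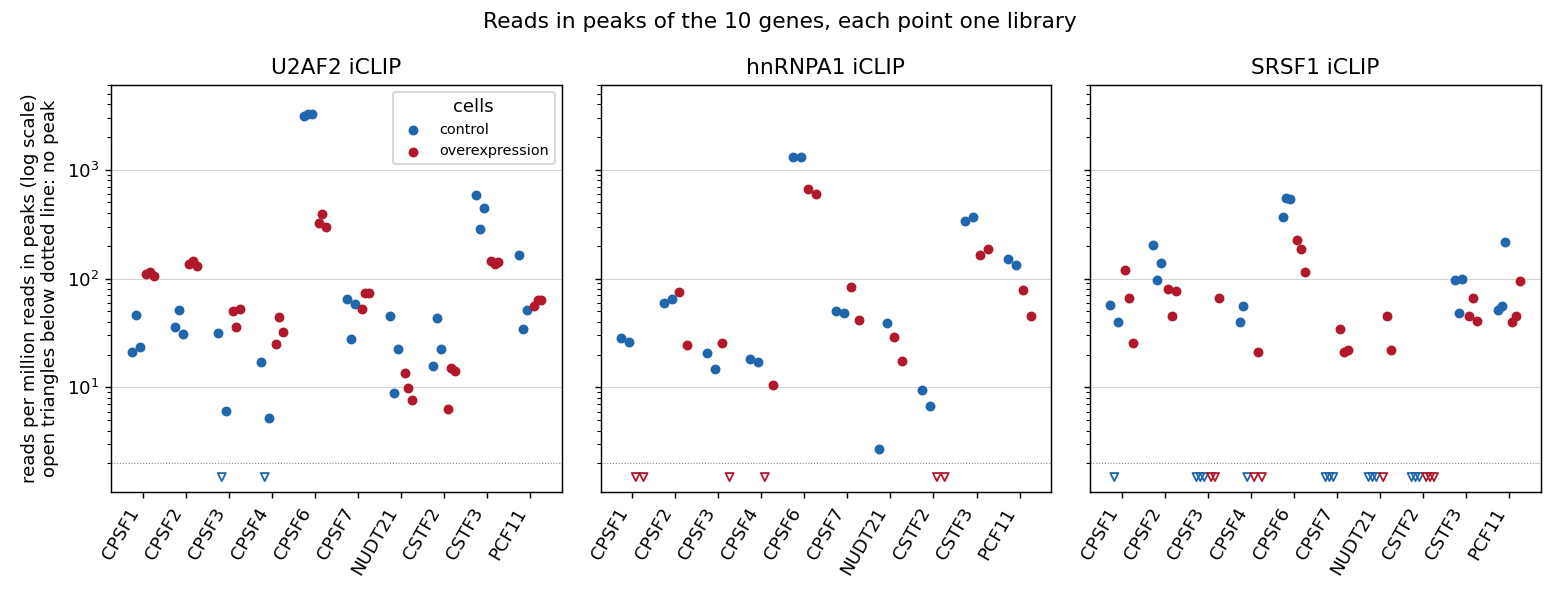
RPM (log scale) for each of the 10 genes in each library, by antibody. Each point is 1 library, blue for control and red for hnRNP A1 overexpression, and open triangles under the dotted line mark libraries with no peak in the gene. In the U2AF2 panel the 3 control points of CPSF6 lie between 3114 and 3256 and its 3 overexpression points between 299 and 391, while those of CPSF1 and CPSF2 lie the other way round.

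U2AF2 reads in these genes differed between control cells and cells with hnRNP A1 overexpression. Relative to other genes, CPSF6 and CSTF3 lost U2AF2 reads. CPSF1 and CPSF2 gained them from few control reads, and NUDT21 and CSTF2 fell on few reads. With 1 library left out at a time, the calls of CPSF1 and NUDT21 held in only 2 of 6 cases each, and that of CSTF2 in 5. CPSF7 and PCF11 did not pass. A peak in every U2AF2 library, the condition for the test, was found for 8 members, since CPSF3 and CPSF4 had none in control replicate 2. Of these, 6 passed an adjusted p of 0.05 in limma, 2 higher and 4 lower. Among all 6829 genes tested, 59.3% passed, 28.6% higher and 30.7% lower, so the share among the members is not far from that of all genes. The median change of the 8 members was -1.35 on the log2 scale, and that of all genes was 0.02. An iCLIP read count rises with the amount of a transcript as well as with the share of it that is bound. These cannot be told apart here, nor can fewer cells holding the transcript from less of it per cell.

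Reads were brought to a common scale with size factors, the median over genes of each library's ratio to the mean library. They ran from 0.339 to 0.577 in the U2AF2 control libraries and from 1.93 to 3.14 with overexpression. With library totals in peaks in place of size factors, the median change of all genes was 0.82 in place of 0.02, and the share of calls that were higher was 72.4% in place of 48.2%. A change is therefore best read relative to other genes.

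Among the genes of the CPSF complex, CPSF1 encodes the large scaffold subunit. It held 15, 36 and 27 U2AF2 reads in the control libraries and 296, 267 and 385 with overexpression. After scaling, the mean was 62.8 ± 29.9 (SD, n = 3) in control cells and 130 ± 7.997 (SD, n = 3) with overexpression, and the groups did not overlap. The log2 change was 1.13 ± 0.34 (SE; limma, adjusted p = 0.0192), and 1.93 when scaled by library totals. The call was lost without control replicate 1 (adjusted p = 0.0506) and without overexpression replicate 1, 2 or 3 (0.0596, 0.0657 and 0.0509).

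CPSF2, a subunit related in sequence to the nuclease CPSF3, gave a similar picture. Its reads were 25, 40 and 36 in the control libraries and 368, 335 and 473 in the overexpression libraries. The scaled means were 81.5 ± 23.8 and 162 ± 11.6 (SD, n = 3 each), without overlap. CPSF2 rose by 1.02 ± 0.26 on the log2 scale (SE; limma, adjusted p = 0.0103), and by 1.81 when scaled by library totals.

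CPSF3 encodes the endonuclease that makes the cut. It had 22, 0 and 7 reads in the control libraries and 135, 83 and 190 with overexpression. CPSF4, a zinc finger subunit that helps read the hexamer, had 12, 0 and 6 reads and then 67, 103 and 119. In RPM, CPSF3 stood at 31.3, 0 and 6.04 against 49.97, 35.8 and 52.0, and CPSF4 at 17.1, 0 and 5.18 against 24.8, 44.4 and 32.5. Both genes were thus higher in each overexpression library than in any control library on that scale. With size factors the groups overlapped: CPSF3 stood at 64.96, 0 and 12.1 against 58.97, 43.1 and 60.5, and CPSF4 at 35.4, 0 and 10.4 against 29.3, 53.5 and 37.9. Neither entered the test because 1 control library listed no peak.

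In cleavage factor I, CPSF6, the larger subunit that carries an arginine- and serine-rich region, showed the largest change of all members. It held 2188, 2522 and 3771 U2AF2 reads in control cells and 877, 907 and 1093 with overexpression, although the overexpression libraries were deeper. The scaled means were 6607 ± 189 and 401 ± 63.1 (SD, n = 3 each), a 16.5-fold fall of the means with no overlap. The log2 change was -4.05 ± 0.15 (SE; limma, adjusted p = 1.95e-06), and -3.25 when scaled by library totals. Only 1.57% of all genes tested had a lower value. The call held without each of the 6 libraries, with values from -4.13 to -3.95.

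CPSF7, the other large subunit of cleavage factor I, held 46, 22 and 67 reads in control cells and 143, 172 and 272 with overexpression. Its scaled means overlapped at 104 ± 39.6 and 79.5 ± 14.8 (SD, n = 3 each). The log2 difference of -0.32 ± 0.35 (SE) did not pass the test (limma, adjusted p = 0.463), and it was 0.48 when scaled by library totals. Without control replicate 2 it was -0.72 and passed (adjusted p = 0.0457).

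NUDT21, the small subunit that recognises UGUA, was covered by few reads, with 32, 7 and 26 in control cells and 37, 23 and 28 with overexpression. Its scaled means were 52.8 ± 38.4 and 12.3 ± 3.64 (SD, n = 3 each). The log2 change was -1.77 ± 0.57 (SE; limma, adjusted p = 0.0269). That call was lost when scaled by library totals (-1.01, adjusted p = 0.153) and without control replicate 1 (0.0681) or 3 (0.0620) or overexpression replicate 2 (0.0696) or 3 (0.0855).

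In CstF, CSTF3 encodes the central subunit and is known to make a short mRNA that ends within an intron. Its U2AF2 reads were 412, 222 and 510 in control cells and 394, 316 and 518 with overexpression. After scaling, the control mean was 900 ± 308 (SD, n = 3) and the overexpression mean 167 ± 4.43 (SD, n = 3), a 5.39-fold fall of the means with no overlap. CSTF3 fell by 2.37 ± 0.25 on the log2 scale (SE; limma, adjusted p = 0.000118), with a value of -1.56 when scaled by library totals. Counted as peaks in place of reads, the change was -0.42 and did not pass (adjusted p = 0.379).

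CSTF2, the subunit that binds the downstream element, held 11, 34 and 26 reads in the control libraries and 17, 35 and 52 in the overexpression libraries. The scaled means were 56.5 ± 31.3 and 14.1 ± 5.79 (SD, n = 3 each), and the groups did not overlap. The log2 change was -1.89 ± 0.50 (SE; limma, adjusted p = 0.0119), lost when scaled by library totals (-1.12, adjusted p = 0.0779) and without overexpression replicate 1 (0.0502).

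PCF11, the subunit of cleavage factor II that binds RNA polymerase II, held 115, 27 and 59 reads in the control libraries and 150, 146 and 233 in the overexpression libraries. The scaled means of 172 ± 146 and 71.8 ± 5.52 (SD, n = 3 each) overlapped, control replicate 1 being the high library. The log2 difference was -0.92 ± 0.51 (SE) and did not pass (limma, adjusted p = 0.151). Without control replicate 2 it was -1.42 and passed (adjusted p = 0.0391). For PCF11, 4 of its 125 peaks are also listed under another gene, and 5 overlap peaks of another gene, so those reads cannot be assigned with certainty. No other member had such peaks.

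**Figure D2:**
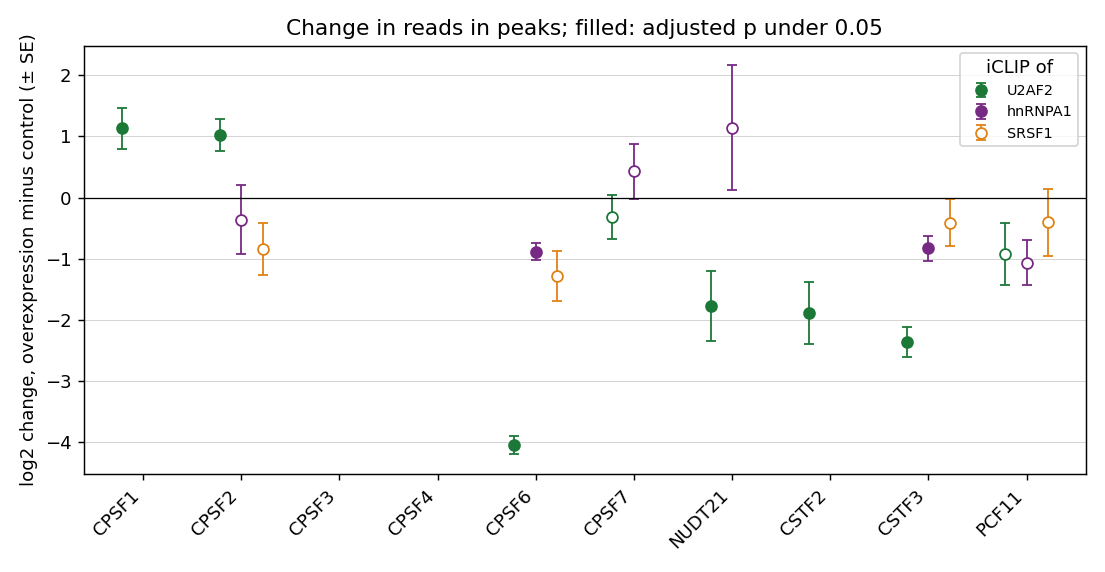
Log2 change in reads in peaks, overexpression minus control, with its standard error, for each member with a listed peak in all libraries of that antibody. Filled points passed an adjusted p of 0.05. The U2AF2 points span from -4.05 for CPSF6 to 1.13 for CPSF1, whereas the 4 SRSF1 points are all open.

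The position of the reads along the transcripts was also compared. For each gene the distance was measured from the 5′ end of the stretch covered by all its deposited peaks in hg19, because no exon annotation of that build was used here. The centre of the reads, weighted by reads, is given as a percentage of that stretch. For U2AF2, the control and overexpression libraries did not overlap in centre for 3 of the 8 members with peaks throughout: CPSF6 toward the 5′ end, CPSF2 and CSTF3 toward the 3′ end. Among 6825 genes 47.4% did not overlap (22.9% toward the 3′ end and 24.6% toward the 5′ end), so 3 of 8 is no more than the background. With 3 libraries against 3 an exact permutation test cannot go below p = 0.1.

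In CPSF6, which covers chr12:69634071-69668112 on the plus strand, the U2AF2 centre lay at 76.3%, 74.8% and 72.9% in control cells and at 41.7%, 39.5% and 41.8% with overexpression. The difference of means was -33.7 percentage points (two-sided exact permutation test, p = 0.1), and 7.90% of genes moved further in either direction. Where the reads went is plain from windows along the gene. The last 12 kb, chr12:69656071-69668112, held 1970, 2211 and 3128 reads in the control libraries and 90, 51 and 84 with overexpression. In RPM this was 2776 ± 65.6 against 26.1 ± 6.27 (SD, n = 3 each), a 106-fold difference. The first 22 kb held 421 ± 124 and 312 ± 50.1 RPM (SD, n = 3 each), values that overlap between the groups. RPM is scaled by library totals, on which the median U2AF2 change of all genes was 0.82 on the log2 scale. An unchanged RPM thus stands for a fall relative to the median gene, and the overlap does not show that the 5′ part was unchanged. The stretches were not scaled by size factors. The border at 22 kb was chosen after the windows were seen, so these stretches carry no test. On this scale nearly all of the missing reads came from the 3′ part of CPSF6.

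The U2AF2 sites of CPSF6 were also counted by group. With peaks of all antibodies merged, 46 sites had a U2AF2 peak in at least 2 of the 3 control libraries and in no overexpression library, and 25 had the reverse. In all 3 libraries of 1 group and none of the other these were 28 and 18, and 0 sites had a peak in all 6 libraries. The overexpression libraries were deeper, and their replicate 3 listed peaks from 3 reads. The same counts over all genes are not given, so whether this turnover is particular to CPSF6 was not tested. With the most reads, chr12:69656879-69657088 held 154, 173 and 176 reads in control cells and no listed peak with overexpression. Another, chr12:69656366-69656628, held 86, 150 and 131 reads and none with overexpression. No single site in CPSF6 carried the loss: the first of these made up 4.43% of the U2AF2 reads of the gene.

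hnRNPA1 bound the same 3′ part of CPSF6 in control cells. There the last 12 kb held 3308 and 2849 hnRNPA1 reads, 85.2% and 87.1% of the reads in the gene, and 288 and 221 with overexpression, 78.7% and 64.8%. In RPM this was 1124 ± 16.3 and then 454 ± 99.1 (SD, n = 2 each). Of the U2AF2 reads of CPSF6, 52.5%, 52.4% and 46.9% in the control libraries lay on hnRNPA1 control peaks, against 14.9%, 8.05% and 8.87% in the overexpression libraries. Over whole U2AF2 libraries that share was 56.6% to 61.4% in control cells and 52.9% to 64.5% with overexpression. The shares of CPSF6 lay below those of the libraries in both groups, and further below with overexpression. Most hnRNPA1 control reads of CPSF6 lay in the last 12 kb. The share on hnRNPA1 control peaks is thus not independent of the loss of U2AF2 reads there.

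**Figure D3:**
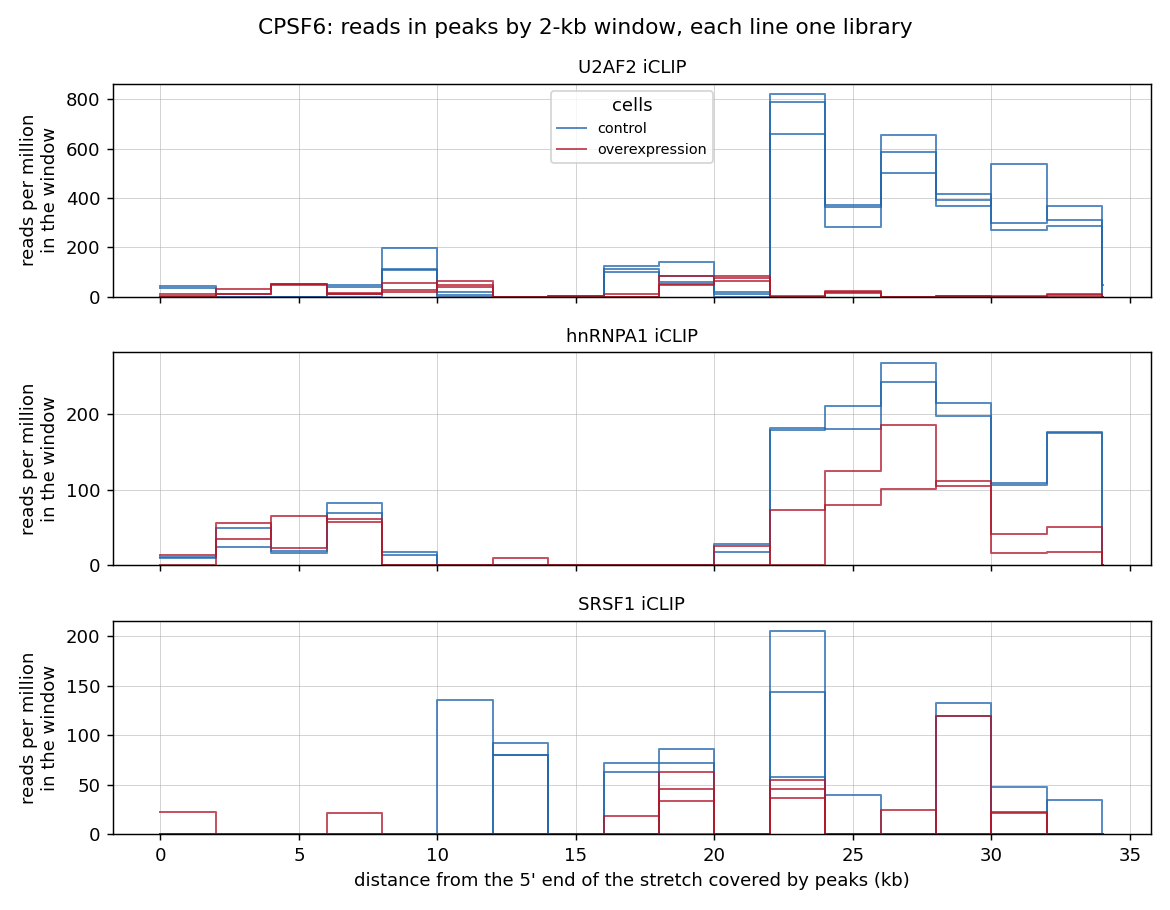
RPM in windows of 2 kb along CPSF6, by distance from the 5′ end of the stretch covered by peaks, for each antibody. Each line is 1 library, blue for control and red for overexpression, and the vertical scales differ between panels. Beyond 22 kb the U2AF2 control lines stand far above the overexpression lines, which stay near 0, while hnRNPA1 lines of both groups rise there.

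CSTF3 moved the opposite way. Its peaks cover chr11:33099491-33183004 on the minus strand, so the 5′ end has the higher coordinate. The U2AF2 centre lay at 27.5%, 32.5% and 30.9% in control cells and at 71.7%, 71.2% and 62.9% with overexpression, a difference of 38.3 percentage points (two-sided exact permutation test, p = 0.1). Of all genes compared, 5.36% moved further in either direction. The stretch from 20 to 26 kb, chr11:33157005-33163004, held 349, 192 and 366 reads in the control libraries and 19, 20 and 19 with overexpression. The last 3.5 kb, chr11:33099491-33103004, held 10, 16 and 26 reads and then 215, 181 and 235. In RPM, the first stretch went from 353 ± 130 to 6.95 ± 1.72 and the second from 19.0 ± 4.28 to 74.0 ± 8.45 (SD, n = 3 each). These stretches too were picked after the windows were seen, and their RPM include the upward shift of all genes on that scale.

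Near the 3′ end of the covered stretch of CSTF3, the site chr11:33099614-33099712 held 10, 16 and 26 U2AF2 reads in control cells. It held 123, 115 and 144 with overexpression. Whether it lies in the last exon is not known here. In the test of single sites, made on the overlapping peaks of the U2AF2 libraries alone, this site changed by 0.44 ± 0.25 on the log2 scale and did not pass (limma, adjusted p = 0.129). The change in centre thus came with a loss upstream as well as with reads at the 3′ end of the covered stretch. With each peak weighted alike in place of by its reads, the centre of CSTF3 moved by 10.7 percentage points, not 38.3.

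**Figure D4:**
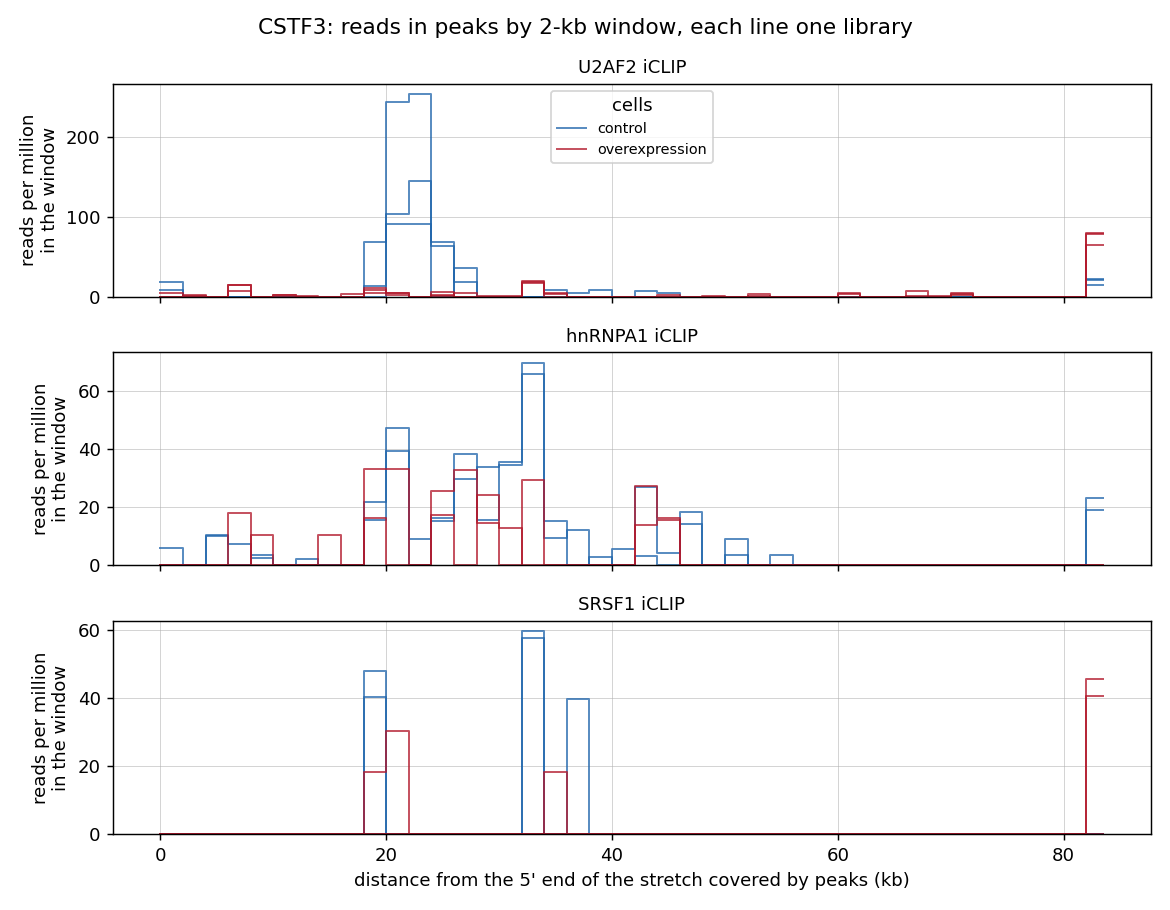
RPM in windows of 2 kb along CSTF3, drawn in the same way as for CPSF6. The U2AF2 control lines peak between 20 and 26 kb, where the 3 overexpression libraries hold 19 or 20 reads each, and the overexpression lines peak in the final window.

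CPSF2, covering chr14:92588430-92630377 on the plus strand, had its U2AF2 centre at 56.2%, 85.6% and 84.4% in control cells and at 93.9%, 93.1% and 91.7% with overexpression (difference 17.6 percentage points, two-sided exact permutation test, p = 0.1). Of all genes compared, 27.1% moved further in either direction. Control replicate 1 stood apart, and without it the difference was 7.96. The last 1.9 kb held 13, 34 and 19 reads in control cells and 332, 312 and 426 with overexpression. In RPM, which includes the upward shift of all genes, that was 26.1 ± 15.02 and 125 ± 9.20 (SD, n = 3 each). The leading site there, chr14:92630062-92630377, ends at the last covered base. It held 13, 34 and 19 reads and then 164, 169 and 223, and changed by 0.63 ± 0.33 on the log2 scale (limma, adjusted p = 0.0983). A neighbouring site, chr14:92629340-92629532, had no control peak and 157, 133 and 203 reads with overexpression.

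For the other 7 members the U2AF2 centres overlapped between the groups, CPSF3 and CPSF4 having peaks in only 2 control libraries. CPSF1, on the minus strand of chromosome 8 from 145618479 to 145632381, had its centre at 27.8%, 22.03% and 27.8% and then at 24.998%, 24.3% and 24.1%. Most of its U2AF2 reads lay in 1 site, chr8:145628450-145628622, with 15, 21 and 27 reads in control cells and 233, 199 and 289 with overexpression. That site passed the test of sites with a log2 change of 1.00 ± 0.21 (SE; limma, adjusted p = 0.000942). The same site held the most hnRNPA1 reads of CPSF1, 61 and 42 in control cells, and the most SRSF1 reads.

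CSTF2, on the plus strand of chromosome X from 100077786 to 100094250, had its leading U2AF2 site at chrX:100082632-100082970. It held 11, 28 and 26 reads in control cells and 17, 7 and 14 with overexpression, and fell by 3.04 ± 0.37 on the log2 scale (SE; limma, adjusted p = 8.04e-06). The overexpression counts were small, where peaks were listed from 6 reads, or from 3 in replicate 3. The window from 4 to 6 kb around the site held 11, 34 and 26 control reads. With overexpression it held 17, 19 and 21, so some reads there lay in peaks outside the site. No hnRNPA1 peak lay on any U2AF2 read of CSTF2. Its centre stayed at 30.7%, 30.3% and 30.1% and then 31.2%, 23.2% and 31.7%. Together, 2 of the 4 member sites with a peak in all 6 U2AF2 libraries passed, against 76.3% of 4837 sites of all genes, and 4 passed without control replicate 2. CPSF6 had no site of that kind in the U2AF2 libraries.

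For the remaining 5 members the U2AF2 site with the most reads was listed with overexpression and in no control library. In CPSF3 it was chr2:9586659-9586722 (33, 31 and 34 reads) and in CPSF4 chr7:99050139-99050208 (32, 22 and 35). In CPSF7 it was chr11:61172064-61172118 (22, 19 and 31) and in NUDT21 chr16:56477088-56477164 (11, 14 and 14). In PCF11 it was chr11:82895146-82895207 (25, 17 and 39), near the 3′ end of the stretch. The control libraries were shallower, so a site of this depth may fall under their limit for listing a peak. Sites were ranked by reads summed over the U2AF2 libraries without scaling, so the deeper overexpression libraries weighed more in the choice. The same count over all genes is not given.

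**Figure D5:**
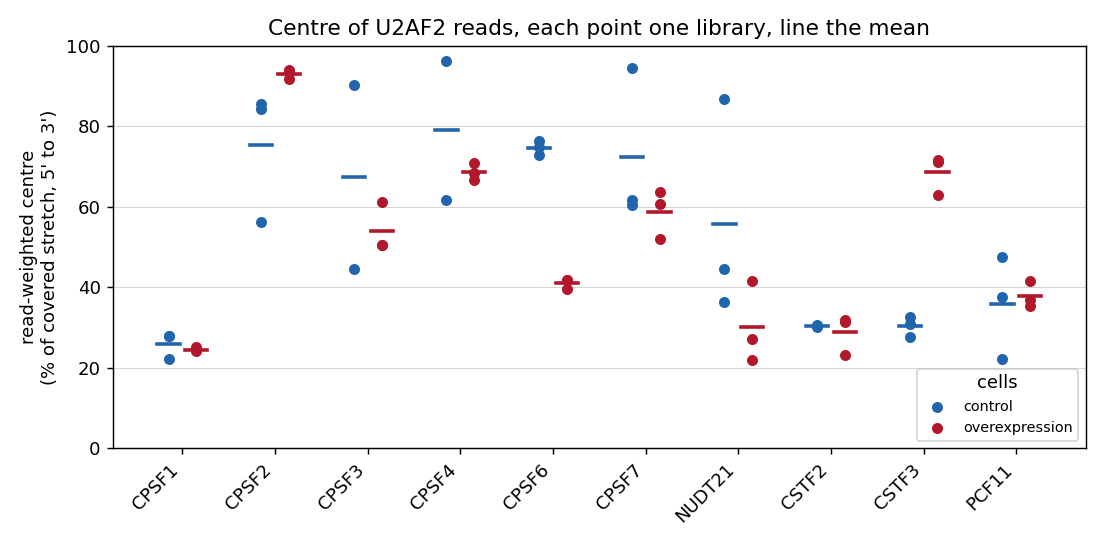
Centre of the U2AF2 reads of each member in each library, as a percentage of the stretch covered by peaks from its 5′ to its 3′ end. Points are libraries and lines are means, blue for control and red for overexpression. CPSF6 drops from about 74.7% to 41.0%, and CSTF3 climbs from 30.3% to 68.6%.

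Relative to other genes, hnRNPA1 reads of CPSF6 and CSTF3 were fewer after its own overexpression, though the call of CSTF3 was not stable. A peak in all 4 hnRNPA1 libraries was found for 6 members, and 2 of them passed the test, both lower, against 17.8% of 5738 genes (9.50% higher and 8.33% lower). Scaled by library totals, the higher share of the calls over all genes was 38.6% in place of 53.3%, and the median of all genes moved from 0.01 to -0.16. CPSF6 held 3883 and 3272 reads in control cells and 366 and 341 with overexpression. Its scaled means were 1526 ± 28.9 and 827 ± 75.3 (SD, n = 2 each), and it fell by 0.89 ± 0.14 on the log2 scale (SE; limma, adjusted p = 0.0153).

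CSTF3 held 999 and 919 hnRNPA1 reads and then 90 and 108. The scaled means were 410 ± 17.7 and 231 ± 20.2 (SD, n = 2 each). It fell by 0.83 ± 0.21 on the log2 scale (SE; limma, adjusted p = 0.0377), a call lost with peaks thinned to equal depth (-0.55, adjusted p = 0.173) and without control replicate 1 (0.119), control replicate 2 (0.169) or overexpression replicate 1 (0.0688). PCF11, with 445 and 333 reads and then 43 and 26, differed by -1.07 ± 0.37 (SE) and did not pass (limma, adjusted p = 0.0834). It passed without overexpression replicate 1 (-1.39, adjusted p = 0.0316).

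CPSF2 and CPSF7 did not pass either, with 176 and 162 reads against 41 and 14 for CPSF2 (log2 difference -0.36, limma adjusted p = 0.679) and 149 and 121 against 46 and 24 for CPSF7 (0.43, 0.525). NUDT21 held 8 and 97 reads in control cells and 16 and 10 with overexpression, so its control libraries differed more from each other than the groups did. Its difference of 1.15 ± 1.02 (SE; limma, adjusted p = 0.443) was -0.59 without control replicate 1 and 2.76 without control replicate 2, which passed (adjusted p = 6.94e-08). Where 1 control library is left, it is assumed to vary like the other group.

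The other 4 members lost their listed hnRNPA1 peaks in 1 or both overexpression libraries. CPSF1 held 85 and 65 reads in control cells and CSTF2 28 and 17, and neither had a peak with overexpression. CPSF3 held 61 and 37 and then 14 and 0, and CPSF4 54 and 43 and then 0 and 6. Since the overexpression libraries were shallower, these 0 values cannot be read as loss of binding.

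Of 10 member sites with an hnRNPA1 peak in all 4 libraries, 4 passed, all higher: 3 of the 6 in CPSF6 and the 1 in CPSF7. Over all genes 58.9% of 9684 sites passed (56.2% higher and 2.75% lower), with a median of 1.00, so this is no more than the background. A site entered only with a listed peak in both shallower overexpression libraries, so sites that fell tended to be left out. The size factors were 2.51 and 2.17 in the control libraries and 0.416 and 0.441 with overexpression. The direction of these calls therefore says nothing about the sites of these genes as a whole. The called sites in CPSF6 were chr12:69639353-69639428 (1.06), chr12:69640110-69640233 (1.13) and chr12:69658164-69658285 (0.87), and in CPSF7 chr11:61177013-61177131 (1.43), each a log2 change. Scaled by library totals 2 member sites passed, and 0 passed without control replicate 1, 7 without overexpression replicate 1 and 8 without overexpression replicate 2. hnRNPA1 reads of CPSF6 lay at 72.8% and 73.9% in control cells and at 65.0% and 61.4% with overexpression, and those of CSTF3 at 37.5% and 39.9% and then 34.4% and 32.1%. Neither pair overlapped, and 52.7% of genes did not overlap (28.7% toward the 5′ end). With 2 libraries against 2 the exact test cannot go below p = 0.33.

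SRSF1 read counts in these genes were low. CPSF2, CPSF6, CSTF3 and PCF11 had a peak in all 6 SRSF1 libraries, and 0 of these 4 passed the test in limma. At an unadjusted p under 0.05, 1 of the 4 passed, against 22.9% of all 1845 genes. At the adjusted threshold 6.78% of all genes passed (4.17% higher and 2.60% lower). CPSF6 held 64, 69 and 82 SRSF1 reads in control cells and 40, 61 and 31 with overexpression, with scaled means of 89.5 ± 28.0 and 36.1 ± 10.9 (SD, n = 3 each) that did not overlap. Its log2 difference of -1.29 ± 0.41 (SE; limma, adjusted p = 0.0822) passed when scaled by library totals (-1.47, adjusted p = 0.0401).

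CPSF2 held 35, 12 and 21 SRSF1 reads and then 14, 15 and 21 (log2 difference -0.84, limma adjusted p = 0.263). Its site chr14:92630073-92630139, inside the U2AF2 site at the 3′ end of the covered stretch, held 19, 12 and 21 reads and then 8, 15 and 9. That site passed with a log2 change of -1.18 ± 0.28 (SE; limma, adjusted p = 0.0174), against 16.2% of 1403 sites of all genes (4.49% lower). The call was lost without control replicate 3 and without overexpression replicate 1 or 3. CSTF3 held 17, 6 and 15 reads and then 8, 22 and 11, and PCF11 9, 7 and 33 and then 7, 15 and 26. Their differences of -0.41 and -0.40 did not pass (limma, adjusted p = 0.573 and 0.705).

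The rest of the members were hardly seen with SRSF1. CPSF1 held 10, 0 and 6 reads and then 21, 22 and 7, CPSF4 7, 7 and 0 and then 0, 7 and 0. CPSF7 had no peak in control cells and 6, 7 and 6 reads with overexpression, NUDT21 none and then 0, 15 and 6, CPSF3 none and then 0, 0 and 18. CSTF2 had no SRSF1 peak in any of the 6 libraries. None of the 4 tested members had SRSF1 centres that kept the groups apart, against 21.9% of genes.

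Whether U2AF2 and SRSF1 responded alike was tested as the difference of their responses over 12 libraries. Of the 4 members with a peak in all 12, 3 passed, against 50.7% of 1656 genes. CPSF6 fell more in U2AF2 than in SRSF1, by 2.77 ± 0.42 on the log2 scale (SE; limma, adjusted p = 0.000135). CSTF3 did so by 1.96 ± 0.46 (adjusted p = 0.00382), and CPSF2 went up in U2AF2 relative to SRSF1 by 1.86 ± 0.44 (adjusted p = 0.00406). PCF11 showed a difference of -0.52 ± 0.82 (adjusted p = 0.611). Scaled by library totals, CPSF2 and CPSF6 passed (2.85 and -1.75) and CSTF3 did not (-0.93, adjusted p = 0.131), and the higher share of calls over all genes went from 44.0% to 70.8%.

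In control cells the antibodies were compared on RPM. CPSF6 stood 1.29 ± 0.10 higher on the log2 scale with U2AF2 than with hnRNPA1 (SE; limma, adjusted p = 0.000743), from 3197 ± 73.8 (SD, n = 3) against 1305 ± 1.25 (SD, n = 2). It was the only member of 8 tested to pass, against 20.1% of 7207 genes (9.55% higher). The others ranged from -1.08 for PCF11 to 1.52 for CSTF2, which did not pass (adjusted p = 0.0719). PCF11 passed without U2AF2 control replicate 1 (-1.73, adjusted p = 0.0230). Against SRSF1, 3 of 4 tested members passed, where 45.6% of 2260 genes did: CPSF6 was higher with U2AF2 by 2.73 ± 0.25 (adjusted p = 0.0001), CSTF3 was higher by 2.42 ± 0.43 (0.00175), and CPSF2 was lower by 1.83 ± 0.43 (0.00660). The U2AF2 comparisons share the same 3 U2AF2 control libraries.

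Other genes of 3′ end formation were drawn from 2 lists. Of 19 further cleavage and polyadenylation genes, 14 were tested with U2AF2 and 7 passed, 1 higher and 6 lower, where 59.3% of all genes passed. The median change was -0.65 against 0.02 for all genes. Lowest was SCAF4, which binds the polymerase tail and helps prevent early termination, with -4.05 ± 0.19 (SE; limma, adjusted p = 2.17e-06) and scaled means of 1148 ± 51.8 and 69.3 ± 13.6. PAPOLA, the poly(A) polymerase, fell by 2.39 ± 0.20 from 1214 ± 286 to 227 ± 9.41. FIP1L1, the CPSF subunit that recruits it, fell by 2.32 ± 0.19 from 892 ± 190 to 175 ± 7.23 (SD, n = 3 each, adjusted p = 3.28e-05 and 3.18e-05). PPP1CB, a phosphatase subunit, was the 1 that rose.

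With hnRNPA1, 15 of these 19 were tested and 4 passed, 2 in each direction, against 17.8% of all genes: WDR33, the CPSF subunit that contacts the hexamer, rose by 1.36 ± 0.16, SCAF4 fell by 1.21 ± 0.24 and FIP1L1 fell by 0.86 ± 0.16 (SE; limma, adjusted p = 0.0106, 0.0230 and 0.0196). With SRSF1, PABPN1, the nuclear poly(A)-binding protein, was the 1 of 6 to pass, against 6.78% of all genes, and fell by 1.42 ± 0.31 (adjusted p = 0.0219).

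The other list held 15 genes of the Integrator complex and of histone 3′ end processing. With U2AF2, 9 were tested and 5 passed, 3 higher and 2 lower, against 59.3% of all genes, with a median of 0.07. LSM11, of the U7 particle that cuts histone pre-mRNA, rose by 2.04 ± 0.19 from 88.0 ± 4.28 to 367 ± 51.1, and INTS13 rose by 1.68 ± 0.43 from 22.6 ± 13.5 to 67.1 ± 1.51 (limma, adjusted p = 6.9e-05 and 0.0100). With hnRNPA1, 2 of 8 passed, against 17.8% of all genes, and both rose, CASP8AP2 by 1.49 ± 0.30 and INTS6 by 1.07 ± 0.27 (adjusted p = 0.0226 and 0.0391). With SRSF1, 0 of 3 passed in limma, against 6.78% of all genes, and none had an unadjusted p under 0.05.

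Genes whose levels followed those of CPSF6 over the 16 libraries were ranked by Pearson r of log2 RPM among 3326 genes with a peak in at least 14 libraries. HELLS came first with r = 0.974, then ENSG00000244332 with 0.936 and CSNK1A1 with 0.927. The points share libraries and differ by antibody and condition, so r is only a description. In the deposited table of exon inclusion changes from the RNA-seq, 0 of 251 cassette exon events overlapped the stretch covered by peaks of any member.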

How the data were processed

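The members, gene lists and comparisons were chosen with earlier results of these data known. The submitters' processing notes name Bowtie2, TopHat and hg19, without versions, and the file headers name CLIPper as the peak caller; other settings are not given in the sources used here. Each deposited peak gives a gene identifier, the reads in the peak and, per the file headers, the caller's p-value. The deposited reads in peaks are not normalized by the authors, and other reads of a library are not in the peak lists. The deposited p-values served only as a filter in an alternative. Gene symbols were matched through a name table for 17814 of 19362 identifiers (92.0%). Peak positions are in hg19. No genome of that build was used, so neither exons nor sequences are given.

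Reads were summed per gene and library, divided by median-of-ratios size factors, and tested as log2(value + 1) with limma 3.58.1 (R 4.3.3; empirical Bayes with a mean-variance trend), for genes listed in all libraries of an antibody. A fold change on this scale understates the change of low genes. P-values were adjusted over all genes tested (Benjamini-Hochberg, threshold 0.05). Sites are peaks of a gene and strand merged where they overlapped by at least 1 nt. Antibodies were compared on RPM. The per-gene response fits and the measure of read position were run on simulated data. For hnRNPA1 no minimum share of recovered changes was required. The site fits, the difference of responses and the comparisons of antibodies were not simulated. All 10 members are named throughout; of the other lists, the 3 and the 2 genes with the largest change among those called; of sites, those with the most reads per member and protein and those called. CPSF1, CPSF2, CSTF3 and CPSF6 sites beyond these, PPP1CB, the stretches and the share of reads on hnRNPA1 peaks were chosen after values were seen. Replicates were compared first: at most 0.0693% of peaks were alike in position and reads between 2 libraries of a group, so none is a copy of another. Each library was counted as a sample, although this check cannot show whether they came from separate cultures. The RNA-seq is used only through the authors' deposited table of exon events. Reads from PCR are not independent molecules, and intervals of counts are not given.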

Additional observations from a re-analysis of the deposited data

Results flagged for a closer look

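Between U2AF2 and SRSF1, the response to hnRNP A1 overexpression differed for 3 members by the test of the difference itself (limma over 12 libraries, log2 scale). CPSF2 gave 1.86, CPSF6 gave -2.77 and CSTF3 gave -1.96. The responses themselves were 1.02 in U2AF2 and -0.84 in SRSF1 for CPSF2, -4.05 and -1.29 for CPSF6, and -2.37 and -0.41 for CSTF3. Beside these values stand library totals of 702563 to 3657197 reads for U2AF2 and 125082 to 329448 for SRSF1, whose part in the result was not tested. No group of libraries was large enough to test for a single library far from the others. Libraries named above as high or apart are description only.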

How the results depend on the processing

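The other settings gave 755 values, of which 633 kept direction and call or, for counts and values with no test, stayed close. Replicate numbers do not pair the libraries (correlations of same-numbered libraries from -0.0135 to 0.0219). With the replicate number as a block, 3878, 111 and 1088 genes passed for U2AF2, SRSF1 and hnRNPA1, and 6, 0 and 2 members, as without it; 3 member sites passed for U2AF2 in place of 2. CPSF6 in U2AF2 passed under every setting run. Counted as peaks in place of reads, 1493 genes and 1 member passed for U2AF2, 15 genes for SRSF1, 384 genes and 0 members for hnRNPA1, and 293 genes and 1 member for the difference of responses. That setting also turned CPSF1 (-0.10), CPSF7 (1.03) and PCF11 (0.059) in U2AF2, CPSF2 in SRSF1 (0.10) and in hnRNPA1 (0.35), and PCF11 in the difference (0.080), none of which then passed. Where 50% of the libraries sufficed for a gene to enter, 466 genes and 1 member passed for SRSF1, 4792 and 4 for hnRNPA1, and 2770 and 6 for U2AF2 against SRSF1. At that filter 49216 sites and 90 member sites passed for U2AF2, 1395 and 2 for SRSF1 and 41712 and 68 for hnRNPA1, where more sites are tested and absent peaks enter as 0. Without any such condition the counts were 3 members for U2AF2, 29 genes for SRSF1, and 4520 genes and 4 members for hnRNPA1. With peaks of at least 10 reads, 81 genes and 1 member passed for SRSF1 and 547 genes for hnRNPA1, where CPSF7 turned to -0.24. At a peak p of at most 0.001 these were 74 genes and 1 member, and 568 genes. Thinned to equal depth, 1 member passed for hnRNPA1. Scaled by library totals, 1 member passed for SRSF1, 4 member sites for U2AF2 and 2 for hnRNPA1, CPSF7 in U2AF2 was 0.48 and PCF11 in the difference 0.48. With size factors in the comparison of antibodies, CPSF7 was 0.16 against hnRNPA1 and PCF11 0.27 against SRSF1. In these cases the cause was not tested.

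Leaving out each replicate in turn gave 18 to 196 genes for SRSF1 and 547 to 1677 for hnRNPA1, 413 to 1570 for U2AF2 against hnRNPA1 and 749 to 1625 for U2AF2 against SRSF1. For SRSF1, 18 genes passed without control replicate 1, 196 without control replicate 2, 31 without overexpression replicate 2 and 37 without overexpression replicate 3. For hnRNPA1, 547 passed without control replicate 1, 616 without control replicate 2 and 1677 without overexpression replicate 2. Against hnRNPA1, 413 passed without its control replicate 1 and 422 without its control replicate 2, and against SRSF1 1625 without its control replicate 2. Members passing ranged from 4 to 8 for U2AF2, 1 to 2 for hnRNPA1 and 1 to 2 for U2AF2 against hnRNPA1. Sites passing for SRSF1 ranged from 116 to 405 (405 without control replicate 2, 135 and 116 without overexpression replicates 2 and 3) and for hnRNPA1 from 4720 to 9068 (the latter without overexpression replicate 1), and member sites from 2 to 4 for U2AF2, 0 to 1 for SRSF1 and 0 to 8 for hnRNPA1. Changes of sign were seen for PCF11 in SRSF1 (-0.81 to 0.17), NUDT21 (-0.59 to 2.76) and CPSF2 (-1.09 to 0.47) in hnRNPA1, and PCF11 in the difference (-1.10 to 0.11). In control cells they were seen for CPSF1 (-0.28 to 0.26), CPSF7 (-0.28 to 0.32) and NUDT21 (-0.84 to 2.58) against hnRNPA1 and PCF11 against SRSF1 (-1.02 to 0.29). The limit of 6 reads per peak and the leave-one-out values of read position were chosen after seeing the data. SRSF1 libraries were the shallowest and 6 of the 10 members lacked a peak in some of them; the part of depth in this was not tested.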

Other observations

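The share of U2AF2 reads that lay on hnRNPA1 control peaks differed between the members. In CPSF1 it was 98.0% to 100% in every library. In CSTF3 it was 45.4%, 39.2% and 37.8% in control cells and 65.2%, 70.9% and 53.7% with overexpression, and in CPSF2 52.0%, 85.0% and 52.8% and then 87.2%, 90.1% and 76.3%. In CPSF7 it was 0 in control cells and 4.196%, 5.81% and 4.04% with overexpression, and in CSTF2 it was 0 throughout. Sites with a U2AF2 peak in all 3 overexpression libraries and no control library numbered 3 in CPSF3, 2 in CPSF4, 8 in CPSF7, 7 in CSTF3 and 9 in PCF11, and none of these genes had a site with the reverse. With at least 2 of the 3 libraries asked for, they numbered 10, 7, 17, 13 and 13, against 1, 0, 2, 1 and 2 with the reverse. For hnRNPA1, CPSF6 had 32 sites in both control libraries and in no overexpression library, and CSTF3 had 17. The depth of the libraries moved the same way as these counts, and its part in them was not tested. The same counts over all genes are not given.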
